A study of Mus musculus with 3 samples.

Results

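Cxcl10-high and Cxcl10-low monocytes are the opposite ends of one gated population of brain monocytes, taken from metastasis-bearing mouse brains and ranked by how much of the chemokine transcript Cxcl10 each cell carried. A barcode counted as a monocyte when it held at least 500 genes, at most 15% mitochondrial UMIs (unique transcript molecules), at most 40000 UMIs and at least 70% of its hashtag counts in 1 hashtag. It also needed at least 3 UMIs of Lyz2 (lysozyme), UMIs of at least 4 of the monocyte genes Chil3, Thbs1, Hp, Slpi, Clec4e and Plac8, and less than 1% of its UMIs in S100a8 and S100a9, which neutrophils carry in bulk. Of 12908 barcodes, 1088 were such monocytes. Hashtag samples 1 to 8 held 9, 141, 128, 33, 285, 131, 117 and 244 of them. Sample 1 was not compared, since at least 30 cells were required. Within each of the other 7 samples the monocytes were ranked by Cxcl10 CPM (counts scaled to a total of 1000000 UMIs) and divided into 3 parts of equal size, which gave 358 Cxcl10-low, 363 Cxcl10-middle and 358 Cxcl10-high cells.

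The brains came from female C57Bl/6 mice aged 2 to 3 months, in which brain metastases had been seeded by carotid injection of E0771 cells, a line of murine mammary carcinoma. Some mice received antibodies against the checkpoint proteins VISTA and PD-L1 every other day from day 3 after seeding, and others did not. Which hashtags marked treated mice is not identified here, so the 7 samples are a mixture of treated and untreated brains, and every comparison was made between cells of the same sample. CITE-seq reads transcripts and surface proteins of a cell together, the proteins through 35 antibodies that carry DNA barcodes, and all 8 samples were pooled in 1 capture. The labels of the transcript library give 1 brain hemisphere for each biological sample, but those of the antibody tag and hashtag libraries give other numbers. The labels therefore do not settle what a hashtag sample held. Nothing else says whether samples came from separate animals, so p-values measure the spread between hashtag samples only.

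Cxcl10 encodes a secreted chemokine that draws in T cells and NK cells through the receptor Cxcr3. Its transcription is switched on by interferons. Type I interferons signal through Ifnar1 and Ifnar2 to a transcription factor complex that includes Stat2 and Irf9 and binds a DNA element called ISRE, while interferon-gamma signals through Ifngr1 and Ifngr2 to factors that bind the GAS element. Inflammatory signals that act through NF-kB add to it. Classical monocytes are blood-derived phagocytes that enter inflamed tissue with the help of Ccr2 and can mature into macrophages there. The series title names Cxcl10 in myeloid cells of the brain metastatic niche, and the question put here is which other transcripts and surface proteins differed between monocytes with much and with little of it.

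The promoters of Cxcl10 and of 3 genes that were higher in the Cxcl10-high cells are shown, chosen because they hold the elements named above. The promoters of Cmpk2, Cxcl9, Cd274 and Cx3cr1 were searched in the same way and held no match. The sequences are the RefSeq promoter windows of build GRCm38.p6, from 250 bases before to 50 bases after the gene start, written along the gene. Capitals mark matches on either strand to ISRE (GAAA, any 2 bases, GAAA), NF-kB (GGG, any 2 bases, TTTCC) or GAS (TTC, any 3 bases, GAA), and no match overlapped another.
Cxcl10, chr5:92348840-92349139, minus strand: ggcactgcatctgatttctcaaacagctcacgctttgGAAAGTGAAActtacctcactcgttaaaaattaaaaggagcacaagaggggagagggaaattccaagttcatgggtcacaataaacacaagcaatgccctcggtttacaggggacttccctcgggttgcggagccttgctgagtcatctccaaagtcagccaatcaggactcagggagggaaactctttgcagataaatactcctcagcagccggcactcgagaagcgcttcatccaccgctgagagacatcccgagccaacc
Rsad2, chr12:26456403-26456702, minus strand: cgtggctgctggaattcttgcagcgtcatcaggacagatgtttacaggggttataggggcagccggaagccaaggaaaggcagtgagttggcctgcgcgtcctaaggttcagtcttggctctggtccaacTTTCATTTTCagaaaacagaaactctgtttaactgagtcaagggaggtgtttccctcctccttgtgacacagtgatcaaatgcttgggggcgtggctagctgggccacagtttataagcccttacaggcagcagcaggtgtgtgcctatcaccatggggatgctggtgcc
Ifit1, chr19:34640639-34640938, plus strand: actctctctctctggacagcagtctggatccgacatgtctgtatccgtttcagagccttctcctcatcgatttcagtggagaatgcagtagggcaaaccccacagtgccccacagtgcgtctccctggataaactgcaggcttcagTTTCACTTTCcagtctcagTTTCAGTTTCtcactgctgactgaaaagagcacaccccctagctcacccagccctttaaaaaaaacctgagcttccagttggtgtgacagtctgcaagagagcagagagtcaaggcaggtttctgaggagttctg
Gbp5, chr3:142496684-142496983, plus strand: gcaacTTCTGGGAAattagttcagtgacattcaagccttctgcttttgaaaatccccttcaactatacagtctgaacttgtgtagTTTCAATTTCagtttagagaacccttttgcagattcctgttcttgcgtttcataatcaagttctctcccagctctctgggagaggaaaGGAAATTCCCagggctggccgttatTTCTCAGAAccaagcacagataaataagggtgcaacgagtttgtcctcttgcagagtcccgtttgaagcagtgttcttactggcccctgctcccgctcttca
Cxcl10 (ENSMUSG00000034855) spans bases 92346638 to 92348889 of chromosome 5 in that annotation, and the window covers its promoter and first bases. The Cxcl10 promoter held 1 ISRE match, which began 213 bases before the gene start. In Rsad2 the ISRE match began 120 bases before the start, and in Ifit1 there were 2, at 104 and 85 bases. The Gbp5 promoter held matches to all 3 motifs, with ISRE at 165, NF-kB at 77 and GAS at 245 and 52 bases before the start. A match is a description of these letters and not a measured binding site. Sequences that depart from the searched letters were not marked, so a promoter without a match may still hold an element. A promoter was found for 451 of the 557 genes that were higher in Cxcl10-high cells (below) and for 4495 of the 5524 genes tested. ISRE matches stood in 69 of the 451 promoters (15.3%), against 5.21% of the promoters of all genes tested and 3.99% of all 27025 promoters in the table. For GAS these shares were 13.1, 8.30 and 9.55%, and for NF-kB they were 4.43, 2.25 and 1.89%. Among type I interferon response genes, 36 of 45 had a promoter and 19 of those (52.8%) held an ISRE match. For genes that were lower, a promoter was found for 141 of 177, which is just under 80%. Matches stood in 1.42% of these 141 for ISRE, 7.09% for GAS and 2.84% for NF-kB. With that coverage the shares are given as a description only.

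The sides were chosen by Cxcl10, so its values describe the choice and were not tested. Summed over the cells of a sample, Cxcl10 stood at 0 to 143 CPM (median 41.9) in Cxcl10-low cells, 101 to 2258 CPM (median 760.4) in Cxcl10-middle cells and 2803 to 12506 CPM (median 6509.8) in Cxcl10-high cells. The Cxcl10-high cells held 83.3% of all Cxcl10 UMIs of the 3 parts, and in 1 cell Cxcl10 made up 3.82% of all UMIs. A total of 219 cells held no Cxcl10 UMI, and all 219 were on the low side, where no cell held more than 12. The boundaries lay at different levels in different samples. In sample 8 the lowest Cxcl10-high cell had 5653 CPM and the highest Cxcl10-middle cell 5600 CPM, whereas in sample 4 these values were 409 and 225 CPM. At the lower boundary the highest Cxcl10-low and the lowest Cxcl10-middle cell both lay near 502 CPM in sample 8 (501.5 and 501.6), and in sample 4 no Cxcl10-low cell had any Cxcl10. Cells of sample 8 in the middle part (2258 CPM summed) were therefore near the Cxcl10-high cells of sample 4 (2803 CPM).

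**Figure D1:**
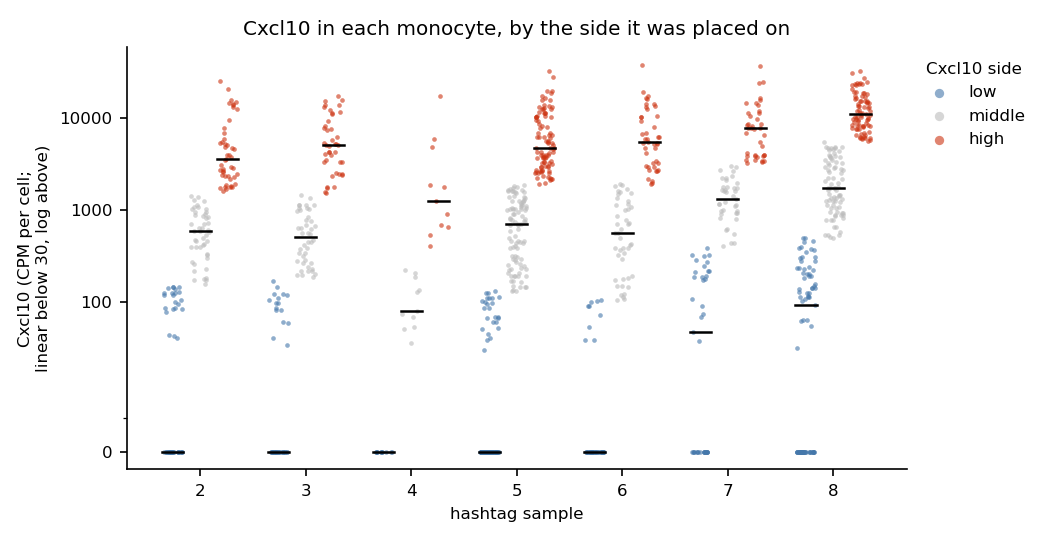
Cxcl10 in each of 1079 monocytes, in CPM (linear below 30, logarithmic above), by hashtag sample and by the part in which the rule placed the cell; black bars are medians. The parts do not overlap within a sample because they were cut on this value, and samples 7 and 8 lie higher than sample 4 in every part.

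A Cxcl10 UMI was found in 79.7% of the monocytes (median 11191 UMIs per cell). Among 1313 T cells of the same samples, defined by at least 3 T cell markers and fewer than 3 Lyz2 UMIs, the share was 28.4% at a median of 5245 UMIs, and their summed Cxcl10 was 201 to 481 CPM (median 315). T cells are not a usual source of Cxcl10. Before the division by Cxcl10, the monocytes of these samples stood at 878 to 4363 CPM (median 2357), above the T cell level. The Cxcl10-low monocytes lay below the T cell level, but they had been chosen for low Cxcl10. Their place below the T cells therefore cannot show whether they transcribed the gene. Free RNA in droplets was not measured, so a low count in a Cxcl10-low cell does not show that the cell transcribed the gene.

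The genes of the gate were also used to select cells and are given without a test. Plac8 stood at 1202 to 3311 CPM (median 2202) in Cxcl10-low and 2459 to 6147 CPM (median 3774) in Cxcl10-high cells. The log2 differences were 0.90 for Plac8, 0.83 for Slpi, 0.55 for Clec4e, 0.55 for Chil3, 0.35 for Thbs1, 0.33 for Lyz2 and 0.28 for Hp. Markers of other cell types were present in the gate. Of the 1079 cells, 999 held UMIs of at least 2 of 8 tumour macrophage genes or of at least 2 border-associated macrophage genes (F13a1 left out). Neutrophil markers were mixed. Ly6g had 0 UMIs in all 3 parts, and Ngp, Camp and Ltf had at most 2 in any part. Csf3r had 366, 364 and 382 UMIs in the low, middle and high parts, and Mmp8 had 276, 262 and 305. Hdc had 129, 181 and 225, Cxcr2 32, 19 and 42, and Retnlg 16, 20 and 20. Of the genes that the gate had limited, S100a9 had 367, 214 and 591 and S100a8 had 585, 571 and 580. Median UMIs per cell were 7918 to 13073 (median 10392) on the low side and 9179 to 14253 (median 10494) on the high side, higher in 4 of 7 samples. None of 5 measures of depth and quality (UMIs, genes, mitochondrial percent, antibody tags and hashtag counts per cell) passed an exact two-sided sign-flip permutation test, with adjusted p = 0.875 for each, where 0.0156 is the smallest unadjusted p that 7 pairs allow. The Cxcl10-middle cells were deeper, with a median of 13480 UMIs.

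Monocytes rich in Cxcl10 carried more of most tested genes of the type I interferon and interferon-gamma lists than Cxcl10-poor monocytes of the same brain sample. Several inflammatory cytokine genes, Il15, the costimulatory gene Cd40 and several genes of programmed cell death were higher as well. Fewer genes were lower, among them Cx3cr1, the fractalkine receptor, and some transcripts of mature macrophages. Of 5524 genes tested outside those used for the choice, 557 were higher in Cxcl10-high cells (10.1%) and 177 were lower (3.2%) in edgeR's quasi-likelihood test, with the sample as a block and Benjamini-Hochberg adjusted p under 0.05. Of these, 397 were higher and 87 were lower in all 7 samples, and for 120 and 22 of the called genes the 2 sides did not overlap. These counts have no share over all genes beside them and do not set the called genes apart. Ifnar2, which did not pass, was also lower in 7 of 7 samples without overlap. The log2 fold change exceeded 1 for 142 higher and 11 lower genes, and 2 for 19 higher genes, while the median over all tested genes was -0.04. The count of lower genes moved more than that of higher genes when samples were left out. Without sample 8 the test called 440 genes higher and 71 lower, and without samples 7 and 8, those with the highest Cxcl10, 389 higher and 41 lower.

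Against the Cxcl10-middle cells, a comparison added after the data were seen, 425 genes were higher in Cxcl10-high cells (7.24% of 5869) and 112 lower (1.91%). Between Cxcl10-middle and Cxcl10-low cells 81 genes were higher (1.33% of 6070) and 2 lower (0.0329%). The Cxcl10-middle mean lay between the outer ones for 504 of the 557 higher genes and 158 of the 177 lower genes, at a median of 35.0 and 34.8% of the way from the low to the high level. All 3 comparisons share cells of the same samples.

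**Figure D2:**
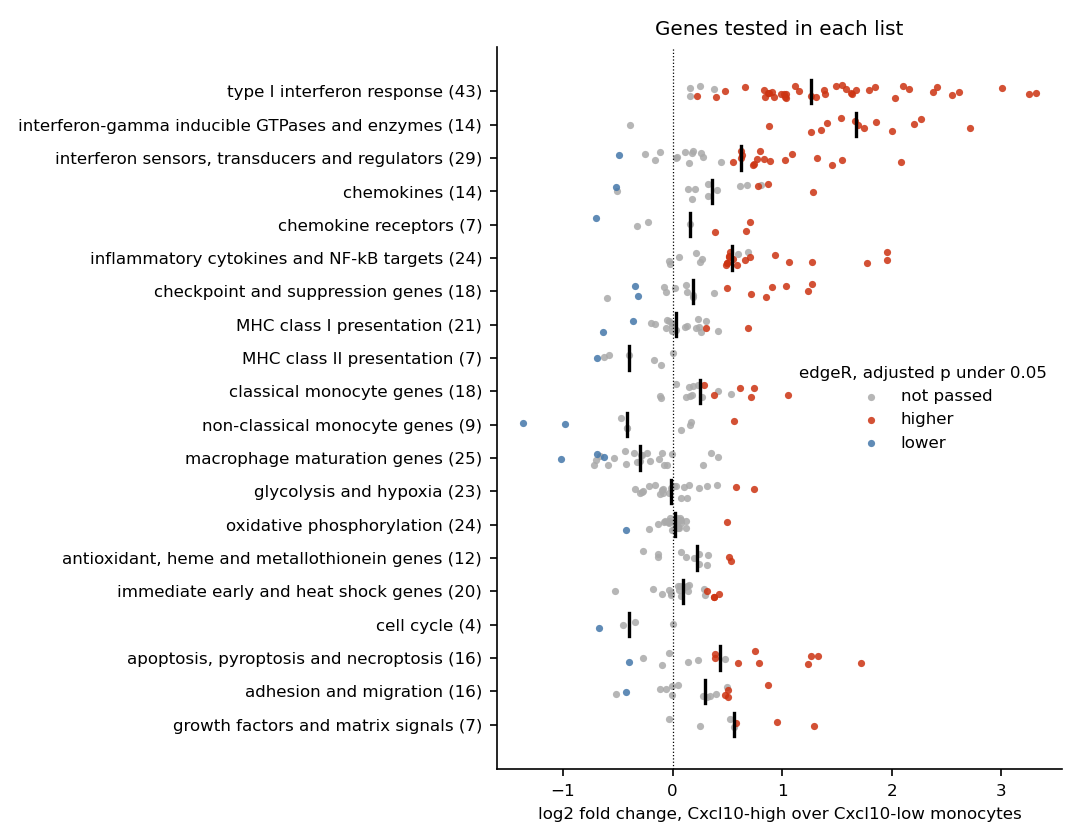
Log2 fold change, Cxcl10-high over Cxcl10-low monocytes, of every tested gene in 20 gene lists (number tested in brackets); red and blue points passed the edgeR test at an adjusted p under 0.05 as higher or lower, and black bars are list medians. The type I interferon list and the interferon-gamma list lie almost wholly to the right, with medians of 1.27 and 1.68.

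Of 45 listed type I interferon response genes, 43 were tested. Of these, 39 were higher (90.7%, against 10.1% of all genes) and none was lower. Their median log2 fold change was 1.27, against -0.04 over all genes. Cmpk2, a mitochondrial nucleotide kinase encoded beside Rsad2 on chromosome 12, stood at 11.8 to 41.9 CPM (median 24.7) in the Cxcl10-low cells and 90.8 to 303 CPM (median 247) in the Cxcl10-high cells, a 9.99-fold difference (log2 3.32, SE 0.12, edgeR adjusted p = 9.6e-11). Rsad2 encodes viperin, an antiviral enzyme, and stood at 63 to 473 CPM (median 193) in the Cxcl10-low cells and 623 to 2143 CPM (median 1949) in the Cxcl10-high cells (log2 3.25, SE 0.22). For both genes every Cxcl10-high value lay above every Cxcl10-low value. Ifit1, whose protein binds foreign RNA ends, stood at 53.1 to 196 CPM (median 101) in the Cxcl10-low cells and 629 to 869 CPM (median 779.6) in the Cxcl10-high cells (log2 3.01, SE 0.18). Its relative Ifit3b stood at 15 to 77.2 CPM (median 42) in the Cxcl10-low cells and 143 to 393 CPM (median 213) in the Cxcl10-high cells (log2 2.61, SE 0.24). Again the sides did not overlap for either gene. Outside the naming rule, the antiviral GTPase gene Mx1 (log2 2.42, SE 0.13) and the ubiquitin-like modifier gene Isg15 (log2 1.50, SE 0.18) were higher too, Isg15 from a median of 1398 to 2617 CPM. The 4 members that did not pass were Oas1g (log2 0.38), Ifi44 (0.25), Bst2 (0.16) and Ly6e (0.16), and Mx2 was not in the matrix. Many listed genes (Ifit, Oas, Slfn, Trim30 and Ifi200 members) lie in families of near-identical copies, between which the authors' counting may have divided reads.

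Most tested interferon-gamma inducible genes were higher as well. Of 22 listed genes 14 had enough counts to be tested. Of these, 13 were higher (92.9%, against 10.1% of all genes) and none was lower, with a median log2 fold change of 1.68. These genes respond to both types of interferon, so the 2 lists do not separate them. Gbp5, a guanylate-binding GTPase of the inflammasome pathway, stood at 8.41 to 93.8 CPM (median 36.9) in the Cxcl10-low cells and 117 to 551 CPM (median 213) in the Cxcl10-high cells (log2 2.72, SE 0.13, edgeR adjusted p = 9.79e-10). Socs1, which encodes a feedback inhibitor of Jak kinases, stood at 8.41 to 45.6 CPM (median 28.4) in the Cxcl10-low cells and 66.8 to 205 CPM (median 128) in the Cxcl10-high cells (log2 2.27, SE 0.16). The immunity-related GTPase gene Irgm1 stood at 33.6 to 129 CPM (median 81.2) in the Cxcl10-low cells and 149 to 419.6 CPM (median 262) in the Cxcl10-high cells (log2 1.85, SE 0.09). None of these 3 genes overlapped between the sides. Acod1 encodes the enzyme that makes itaconate, and its values of 17.7 to 247 CPM (median 99) in the Cxcl10-low cells and 188 to 856 CPM (median 376) in the Cxcl10-high cells overlapped across samples, though it was higher in 7 of 7 (log2 2.20, SE 0.19). Ciita, the master regulator of MHC class II genes, was the tested member that did not pass (log2 -0.39, higher in 1 of 7). Among members too rare to test, Nos2 had 47 UMIs in Cxcl10-low, 139 in Cxcl10-middle and 57 in Cxcl10-high cells, and Ido1 had 0, 1 and 1.

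Of 29 tested genes that sense, transmit and regulate the interferon signal, 16 were higher (55.2%, against 10.1% of all genes). In this list 1 gene was lower (3.45%, against 3.2%), and the median log2 fold change was 0.63. Sensors of viral RNA were among the higher genes. Ifih1, which encodes MDA5, stood at 33.6 to 106 CPM (median 92.3) in the Cxcl10-low cells and 188 to 269 CPM (median 255) in the Cxcl10-high cells (log2 1.54, SE 0.10). Ddx58, which encodes RIG-I, stood at 33.6 to 87.2 CPM (median 67.5) in the Cxcl10-low cells and 119.8 to 203 CPM (median 165) in the Cxcl10-high cells (log2 1.32, SE 0.14). Neither gene overlapped between the sides. The transcription factor gene Irf1 stood at 42 to 211 CPM (median 125) in the Cxcl10-low cells and 104 to 598 CPM (median 301) in the Cxcl10-high cells (log2 1.45, SE 0.16). Batf2, another interferon-induced factor, stood at 0 to 25.7 CPM (median 13.4) in the Cxcl10-low cells and 19.5 to 123 CPM (median 35) in the Cxcl10-high cells (log2 2.08, SE 0.24). Both overlapped across samples and were higher in 7 of 7. Irf7, which encodes a central factor of the pathway, had medians of 745 and 934 CPM (log2 0.64, SE 0.12) and was higher in 7 of 7. Irf9, a partner of Stat2, did not pass (log2 0.11, SE 0.13). Among receptor genes Ifngr1 was lower, from 223 to 399.6 CPM (median 256) to 162 to 253 CPM (median 189) (log2 -0.49, SE 0.09), in 7 of 7 samples. Ifngr2 (log2 -0.16), Ifnar1 (0.03) and Ifnar2 (-0.25) did not pass.

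The interferon genes themselves were too rare for the test, 0 of 7 passing the filter on low counts. Ifnb1, which encodes interferon-beta, had 14 UMIs in 10 Cxcl10-low cells, 35 UMIs in 20 Cxcl10-middle cells and 69 UMIs in 29 Cxcl10-high cells. Ifng had 6, 10 and 8 UMIs, and Ifna1, Ifnl2 and Ifnl3 had 0 in all parts. These are sums over cells of 7 samples. Without that filter 4 of the 7 were tested and Ifnb1 was higher (log2 2.40, SE 0.41, edgeR adjusted p = 3.62e-07), in a fit that called 4.65% of 15903 genes higher. Standard errors in that fit could be smaller than in the filtered one, as for Ccl2 (0.09 against 0.23). Its p-values therefore allow for less spread between samples, and the Ifnb1 call is weak for that reason. The UMI totals behind the summed counts were 4860880 on the low and 4879300 on the high side.

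**Figure D3:**
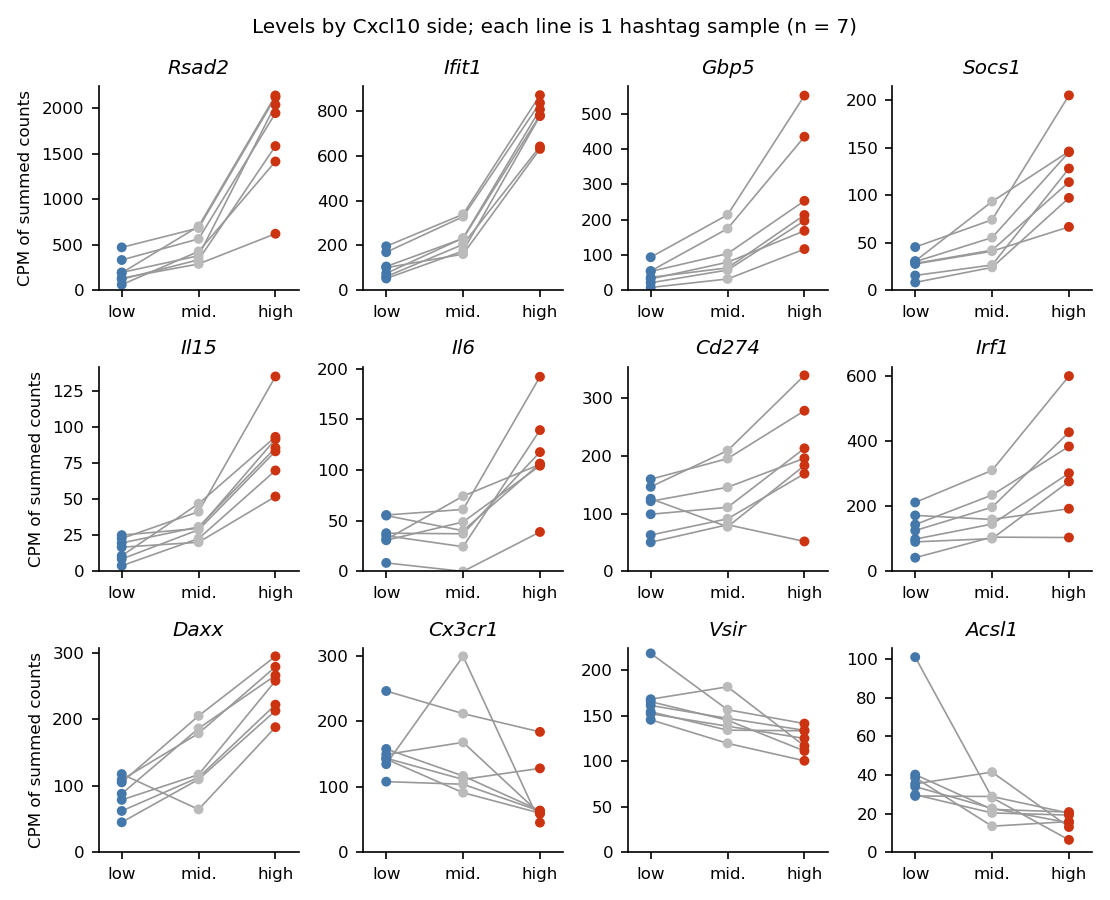
CPM of counts summed over the Cxcl10-low, Cxcl10-middle and Cxcl10-high cells for 12 genes, with 1 line for each of 7 hashtag samples; each panel has its own linear axis from 0. Rsad2, Ifit1, Gbp5, Socs1 and Il15 are higher on the high side in every sample with no overlap, while Cx3cr1, Vsir and Acsl1 fall.

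Of 14 other chemokine genes tested, 3 were higher (21.4%, against 10.1% of all genes) and 1 was lower (7.14%, against 3.2%). The count of higher genes was 1 without the replicate block and without sample 5, and 10 of 20 without the filter on low counts, where Ccl3, Ccl7, Ccl9, Ccl12, Ccl24, Cxcl2 and Cxcl3 were added. That unfiltered fit allows for less spread between samples (SE of Ccl2 0.09 against 0.23 with the filter), so the added calls are weak. Ccl4, which attracts monocytes and T cells, stood at 512 to 2449 CPM (median 1716) in the Cxcl10-low cells and 1583 to 4636 CPM (median 3916) in the Cxcl10-high cells (log2 1.28, SE 0.25) and was higher in 7 of 7 samples. Ccl2, the main ligand of Ccr2, had medians of 792 and 1639 CPM (log2 0.87, SE 0.23) and was higher in 6 of 7. Cxcl9, which shares the receptor Cxcr3 with Cxcl10 and lies beside it on chromosome 5, stood at 82 to 1192 CPM (median 272) in the Cxcl10-low cells and 0 to 2347 CPM (median 357) in the Cxcl10-high cells (log2 0.78, SE 0.22, edgeR adjusted p = 0.0271). It was higher in 6 of 7 samples and had no UMI in the Cxcl10-high cells of sample 4, and the call was lost under 9 of 19 alternatives. Cxcl16 was lower (log2 -0.52, SE 0.12), in 5 of 7 samples. The remaining 10, among them Ccl3 (log2 0.61), Ccl5 (0.14), Ccl7 (0.40) and the neutrophil attractant Cxcl2 (0.32), did not pass. The receptor Cxcr3 itself was rare in these monocytes, with 24, 51 and 21 UMIs in the low, middle and high parts, and Cxcl11 was not in the matrix.

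Of 7 chemokine receptor genes 3 were higher (42.9%, against 10.1% of all genes) and 1 was lower (14.3%, against 3.2%). Ccr1, which guides monocytes to inflamed tissue, stood at 193 to 266 CPM (median 233) in the Cxcl10-low cells and 298 to 422 CPM (median 323) in the Cxcl10-high cells (log2 0.70, SE 0.11), without overlap. Ccrl2, an atypical receptor that binds chemerin, had medians of 535 and 754 CPM (log2 0.67, SE 0.12). Cx3cr1 fell from 108 to 246 CPM (median 144) to 45.4 to 184 CPM (median 63) (log2 -0.70, SE 0.15), in 7 of 7 samples, and its call was lost under 5 of 18 alternatives, one of which left out samples 7 and 8. Ccr2 did not pass, at 451 to 592 CPM (median 530.2) in the Cxcl10-low cells and 422 to 629.6 CPM (median 594) in the Cxcl10-high cells (log2 0.16, SE 0.08, edgeR adjusted p = 0.205).

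Inflammatory cytokine and NF-kB target genes were higher in 16 of 24 tested (66.7%, against 10.1% of all genes) and lower in 0, with a median log2 fold change of 0.54. Il6 stood at 8.41 to 55.7 CPM (median 35.2) in the Cxcl10-low cells and 38.9 to 192 CPM (median 106) in the Cxcl10-high cells (log2 1.77, SE 0.14, edgeR adjusted p = 2.12e-07). Il27, an interleukin of activated myeloid cells, stood at 0 to 23.5 CPM (median 5.15) in the Cxcl10-low cells and 19.5 to 69 CPM (median 30.6) in the Cxcl10-high cells (log2 1.96, SE 0.31). Tnfsf10, which encodes the death ligand TRAIL, stood at 1.58 to 15.4 CPM (median 8.41) in the Cxcl10-low cells and 20.1 to 36.5 CPM (median 26) in the Cxcl10-high cells (log2 1.96, SE 0.33). Only the last of these showed no overlap between the sides. Il18, an inflammasome product, stood at 42.9 to 82.4 CPM (median 55.2) in the Cxcl10-low cells and 97.6 to 157 CPM (median 141) in the Cxcl10-high cells (log2 1.27, SE 0.13), also without overlap. Il1b was abundant on both sides, with medians of 4769.7 and 6648 CPM (log2 0.59, SE 0.08). The NF-kB inhibitor gene Nfkbia, itself a target of the pathway, differed by 0.52 (SE 0.07) on the log2 scale, and Tnf did not pass (log2 0.59, SE 0.24, higher in 7 of 7). Without samples 7 and 8 the count of higher genes in this list was 9 of 23 tested, and without cells that held UMIs of at least 2 genes of a T cell, NK cell, B cell, carcinoma, microglia, endothelial or neutrophil list it was 5 of 19.

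Checkpoint and suppression genes were mixed, with 7 higher (38.9%, against 10.1% of all genes) and 2 lower (11.1%, against 3.2%) of 18 tested. Cd274, which encodes PD-L1, stood at 50.5 to 159.6 CPM (median 121) in the Cxcl10-low cells and 51.9 to 339 CPM (median 196) in the Cxcl10-high cells (log2 1.04, SE 0.12, edgeR adjusted p = 2.31e-05) and was higher in 7 of 7 samples, by the least in sample 4. Cd40, a receptor for T cell help, stood at 25.6 to 86.8 CPM (median 66.9) in the Cxcl10-low cells and 51.9 to 237 CPM (median 119) in the Cxcl10-high cells (log2 1.27, SE 0.16). The receptor gene Slamf8 (log2 0.85, SE 0.14) and Il1rn, which encodes the interleukin-1 receptor antagonist (log2 0.91, SE 0.16), were higher in 7 of 7. Il10, which encodes an anti-inflammatory interleukin, had medians of 15.1 and 42.6 CPM (log2 1.23, SE 0.37) and was higher in 6 of 7. Vsir, which encodes VISTA, moved the other way, at 146 to 218 CPM (median 161) in the Cxcl10-low cells and 101 to 141 CPM (median 125) in the Cxcl10-high cells (log2 -0.31, SE 0.09, edgeR adjusted p = 0.0329). The 2 sides of Vsir did not overlap and it was lower in 7 of 7 samples, but the call was lost under 12 of 19 alternatives. Sirpa, which encodes the receptor for the phagocytosis signal Cd47, was lower as well (log2 -0.34, SE 0.10). Without the replicate block 3 genes of this list were higher and 0 lower.

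Of 21 MHC class I presentation genes 2 were higher, a share of 9.52% beside 10.1% of all genes. Another 2 were lower (9.52%, beside 3.2%), and the median was 0.03. Tap1, which encodes a peptide transporter subunit, stood at 148 to 266 CPM (median 183) in the Cxcl10-low cells and 240.1 to 371 CPM (median 285) in the Cxcl10-high cells (log2 0.69, SE 0.09). Tapbp had a difference of 0.30 (SE 0.09) and lost its call under 14 of 19 alternatives. H2-K1 (log2 -0.20) and B2m (0.03) did not pass, and H2-Q6 (-0.63) and H2-Q7 (-0.36), whose reads are hard to separate between near-identical copies, were lower. Without samples 7 and 8, 6 genes of this list were higher and 0 lower. Of 7 MHC class II genes, H2-Eb1 alone passed and was lower (14.3%, beside 3.2% of all genes). It had medians of 1215 and 831 CPM (log2 -0.69, SE 0.16), and the list median was -0.40. Within samples that list median ran from -1.42 in sample 4 to 0.51 in sample 2.

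**Figure D4:**
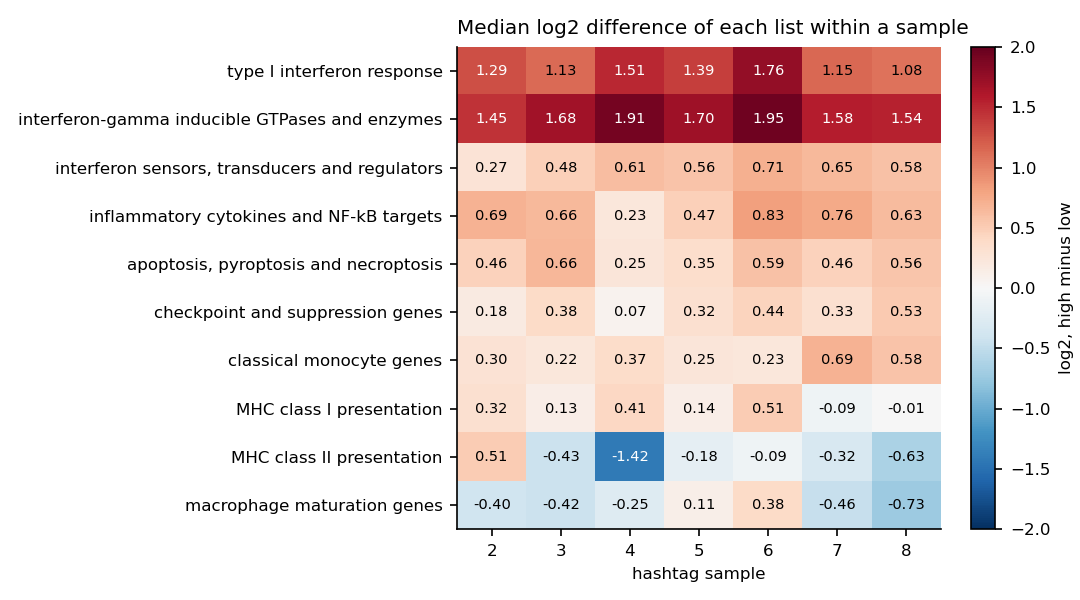
Median log2 difference, Cxcl10-high minus Cxcl10-low, of the genes of 10 lists within each of 7 hashtag samples, printed in each field and coloured from blue (lower) to red (higher). The 2 interferon response lists lie above 1 in all 7 samples, while macrophage maturation and MHC class II genes differ in sign between samples.

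Of 18 classical monocyte genes outside the gate, 6 were higher (33.3%, against 10.1% of all genes) and 0 lower. Vcan, a matrix proteoglycan gene (log2 0.72, SE 0.13), and Cd177, a surface glycoprotein gene (log2 0.74, SE 0.14), were higher in 7 of 7. Ms4a6c differed by 0.38 (SE 0.08). Ly6c2, the classical monocyte antigen gene, stood at 805 to 2196 CPM (median 1579) in the Cxcl10-low cells and 1088 to 2356 CPM (median 1879.7) in the Cxcl10-high cells (log2 0.29, SE 0.08, edgeR adjusted p = 0.0353), and lost its call under 12 of 19 alternatives. With at least 5 of the 6 gate genes required in a cell, which kept 6 samples, 2 of 17 genes of this list remained above the threshold and its median was 0.05 in place of 0.25.

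None of 25 macrophage maturation genes was higher and 3 were lower (12%, against 3.2% of all genes), with a median of -0.29. All 3 fell outside the naming rule, because none was lower in all 7 samples. Gpnmb, a glycoprotein gene of lipid-laden macrophages, had medians of 209 and 129.5 CPM (log2 -1.02, SE 0.20). The lipid receptor gene Trem2 (log2 -0.62, SE 0.15) and the lysosomal protease gene Ctsd (log2 -0.69, SE 0.16) were lower too, in 6 and 5 of 7 samples. Summed levels of the 8 tumour macrophage markers were 6137 to 11319 CPM (median 8947) on the low side and 3283 to 12219 CPM (median 5501) on the high side, lower in 5 of 7 samples. The 10 microglia markers summed to 350.2 to 832 CPM (median 595) and 152 to 808 CPM (median 335), lower in 6 of 7, and the 11 neutrophil markers to medians of 293 and 518 CPM, higher in 5 of 7. The neutrophil sum includes S100a8 and S100a9, which the gate had limited. Conventional dendritic cell markers summed to medians of 74.5 and 53.6 CPM and mature ones to 186 and 190 CPM, each lower in 5 of 7. Plasmacytoid dendritic cell markers summed to 1164 and 1123 CPM, higher in 5 of 7. Those other than Bst2 were lower, such as Ly6d with 189 and 2 UMIs. Choroid plexus markers had medians of 31.6 and 33.5 CPM, but 5130 and 600 CPM in sample 2. Macrophage markers were in most cells. Neither these nor dendritic cell or choroid plexus markers were used to leave cells out, and their part in the differences was not tested. Without the 656 cells that held UMIs of at least 2 genes of a T cell, NK cell, B cell, carcinoma, microglia, endothelial or neutrophil list, which kept 6 samples, 158 genes were higher and 37 lower among 2044 tested. All 158 were among the 557, 21 of the 37 were among the 177, and 32 of 38 tested type I interferon genes were among the higher ones. Without samples 7 and 8 the macrophage list had 1 higher and 1 lower gene of 25.

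Of 9 non-classical monocyte genes, Dusp5 was higher (11.1%, against 10.1% of all genes) and Cd300e (log2 -1.37) and Eno3 were lower (22.2%, against 3.2%). Eno3, an enolase gene, fell from a median of 31.5 to 15.3 CPM (log2 -0.98, SE 0.25), in 7 of 7 samples. The median of this list changed sign under 6 alternatives and has no settled direction. T cell markers, summed over 10 genes, were higher in 3 and lower in 4 of 7 samples, with medians of 228 and 181 CPM.

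Of 16 cell death genes tested, 9 were higher (56.25%, against 10.1% of all genes) and 1 was lower (6.25%, against 3.2%), with a median of 0.43. Daxx, a death-receptor adaptor and histone chaperone gene, stood at 45.3 to 118 CPM (median 88.1) in the Cxcl10-low cells and 188 to 295 CPM (median 258) in the Cxcl10-high cells (log2 1.72, SE 0.12), without overlap. Fas, the death receptor for Fas ligand, had medians of 26.8 and 55.1 CPM (log2 1.33, SE 0.20). The necroptosis executor gene Mlkl (log2 1.27, SE 0.18) and the caspase genes Casp8 (log2 0.79, SE 0.11) and Casp4 (log2 1.24, SE 0.13) were higher as well, Casp4 in 6 samples with no difference in sample 4. Pmaip1, which encodes the pro-apoptotic protein Noxa, was lower (log2 -0.40, SE 0.12).

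The remaining lists are set beside 10.1% of all genes higher and 3.2% lower. For glycolysis and hypoxia 2 of 23 genes were higher (8.70%) and 0 lower, and for oxidative phosphorylation 1 of 24 was higher (Cycs, log2 0.49, SE 0.09) and 1 lower. Immediate early and heat shock genes, which can respond to tissue dissociation, were higher in 4 of 20 (20%), with Junb at medians of 2050.3 and 2486 CPM (log2 0.38, SE 0.07), Zfp36 (log2 0.37, SE 0.07) and Klf6 (log2 0.31, SE 0.08). Of 12 antioxidant, heme and metallothionein genes 2 were higher. Only 4 of 20 cell cycle genes had enough counts to test, of which Tubb5 was lower. Among 16 adhesion and migration genes 4 were higher and 1 lower, including the urokinase receptor gene Plaur (log2 0.51, SE 0.10) and the integrin genes Itga5 (log2 0.51, SE 0.12) and Itga4 (log2 0.47, SE 0.13). Of 7 growth factor genes 3 were higher (42.9%), namely Inhba, which encodes an activin subunit (log2 0.95, SE 0.20), Osm, which encodes oncostatin M (log2 0.58, SE 0.12), and the ErbB ligand gene Nrg1 (log2 1.30, SE 0.40, higher in 5 of 7). Without the replicate block 0 growth factor genes passed.

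Outside the lists, the largest rises again included interferon-induced genes. Il15, which encodes a cytokine that sustains NK and memory CD8 T cells, stood at 3.94 to 25.2 CPM (median 16.8) in the Cxcl10-low cells and 51.9 to 135 CPM (median 85.7) in the Cxcl10-high cells (log2 2.65, SE 0.20, edgeR adjusted p = 2.09e-07). Its receptor gene Il15ra, which presents the cytokine on the cell surface, stood at 0 to 23.7 CPM (median 15.7) in the Cxcl10-low cells and 32.4 to 69.6 CPM (median 65.6) in the Cxcl10-high cells (log2 1.82, SE 0.20). Cd69, an early activation antigen gene, stood at 16.8 to 73.8 CPM (median 51.2) in the Cxcl10-low cells and 136 to 423 CPM (median 257) in the Cxcl10-high cells (log2 2.44, SE 0.12). The sides of all 3 genes were apart. Ifi203, Ifi206 and Ifi208, members of the Ifi200 family of DNA-binding proteins, had log2 fold changes of 1.92, 1.78 and 1.80. The others were the GTPase gene Ifi47 (log2 1.94, SE 0.11), Trim30c (log2 2.01, SE 0.23), the aldehyde dehydrogenase gene Aldh1b1 (log2 2.09, SE 0.25) and Setdb2, a histone methyltransferase gene (log2 1.75, SE 0.26). For all 10 the sides did not overlap. The naming rule took only the largest rises among genes higher in 7 of 7 samples, which favours this. No share over all genes stands beside that count.

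The 10 largest falls outside the lists were smaller in size. Siglech, a lectin gene of microglia and plasmacytoid dendritic cells, fell from 8.41 to 35.6 CPM (median 20.2) to 0 to 23.3 CPM (median 8.35) (log2 -1.20, SE 0.32). Relt, a TNF receptor family gene (log2 -1.09, SE 0.22), Unc119, a lipid-binding trafficking gene (log2 -1.05, SE 0.16), and Rcbtb2 (log2 -1.04, SE 0.17) were lower without overlap. Acsl1, a fatty acid activating enzyme gene, fell from a median of 35.4 to 15.9 CPM (log2 -0.98, SE 0.23), also without overlap. Gpr183, the receptor gene for oxysterols (log2 -0.90, SE 0.16), Tfeb, the regulator of lysosome genes (log2 -0.86, SE 0.21), Pou2f2 (log2 -0.89, SE 0.13), Arid3a (log2 -0.94, SE 0.25) and Arl11 (log2 -0.84, SE 0.19) made up the rest. Without samples 7 and 8 the calls for Siglech, Arl11, Tfeb and Arid3a were lost.

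Across single cells, the genes whose CPM followed Cxcl10 most closely were Slfn5, Ifi203, Ifi47, Gbp5, Ifi204, Rsad2, Ifi209, Ifi211, Mndal and Irgm1. Their mean Spearman correlation within the 7 samples was 0.583 for Slfn5, 0.574 for Ifi203, 0.569 for Ifi47 and 0.558 for Gbp5, and 0.489 for Irgm1, the tenth. In single samples the value for Slfn5 ran from 0.442 to 0.696. The most negative was Zfp36l2, which encodes an RNA-binding protein, at -0.259, followed by Ifngr1 at -0.247. Cells of a sample share a library and their correlations rise with depth and detection, so these values describe likeness only.

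No antibody tag passed the test. Of 35 tags 32 had counts, and 0 passed in either direction (0%) in the edgeR test with Benjamini-Hochberg adjustment. Unadjusted p-values under 0.05 were found for 4 tags. An exact sign-flip permutation test over the 7 samples passed 0 tags but could hardly do otherwise. Its smallest unadjusted p for 7 pairs is 0.0156, too large for a single tag to pass after adjustment over 32. On simulated counts the edgeR test recovered 3 of 5 tags with a log2 change of 1, with 0 false calls. The CD11c tag, the integrin Itgax, stood at 47.7 to 93.6 counts per cell (median 61) in Cxcl10-low and 12.8 to 60.4 (median 47.8) in Cxcl10-high cells (log2 -0.92, SE 0.29, edgeR adjusted p = 0.317). It was lower in 5 of 7 samples per cell and in 6 of 7 as a share of all tags, the scale of the fit. The PD-L1 tag stood at 8.31 to 59 counts per cell (median 35.2) and 5.54 to 57.9 (median 35.1), with a log2 difference of -0.25 (SE 0.09, edgeR adjusted p = 0.317), lower in 4 of 7 samples per cell and in 6 of 7 as a share of all tags. Its transcript Cd274 differed by 1.04 (SE 0.12) the other way. Some of the brains had been treated with an antibody against PD-L1, and how that bears on the tag was not tested.

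The Ly6C tag, a classical monocyte antigen, had medians of 649.6 and 849 counts per cell (log2 0.24, SE 0.09), beside 0.29 for the Ly6c2 transcript. The SIRPa tag was lower in 4 of 7 samples per cell and in 7 of 7 as a share of all tags (log2 -0.18, SE 0.08). For CD64, the Fc receptor encoded by Fcgr1, the transcript differed by 0.87 (SE 0.13) and the tag by -0.06 (SE 0.14). The costimulatory protein CD86 differed by 0.50 (SE 0.10) as RNA and 0.01 (SE 0.18) as tag. CX3CR1 fell as RNA (-0.70) and differed by 0.07 (SE 0.09) as tag. Tag and transcript are on separate scales, the first as a share of all tags of a cell, and the difference between them was not tested.

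**Figure D5:**
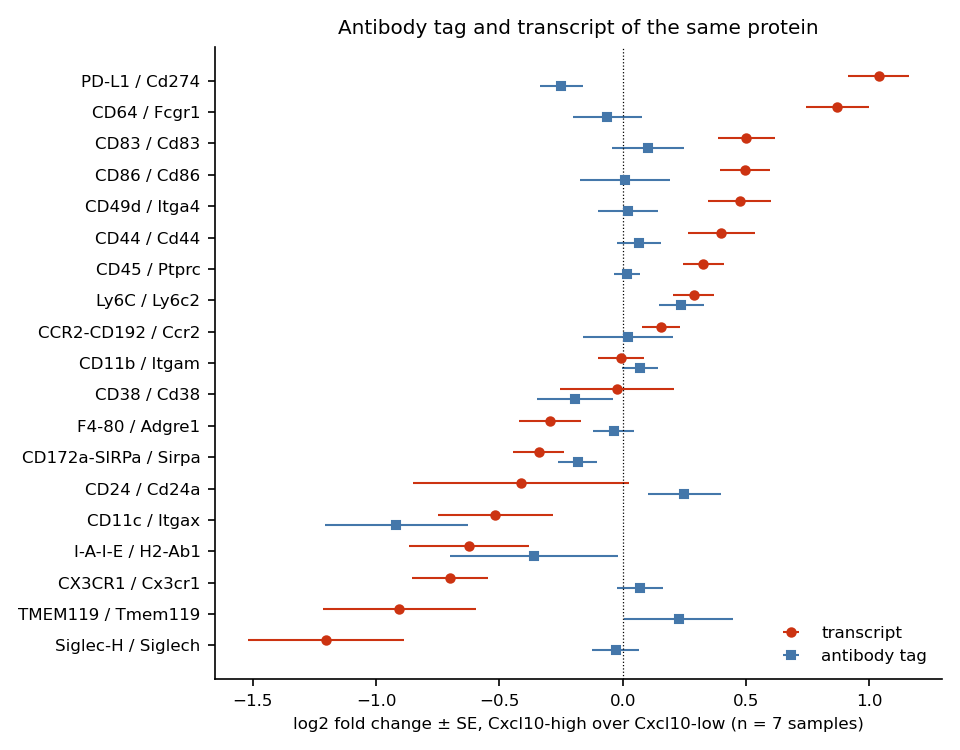
Log2 fold change ± SE, Cxcl10-high over Cxcl10-low monocytes, of antibody tags (blue squares) and of the transcripts of the same proteins (red circles), from edgeR over 7 hashtag samples. Transcripts range from -1.20 for Siglech to 1.04 for Cd274, whereas most tags stay near 0 and none passed the test.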

How the data were processed

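The deposited values are raw counts per feature and cell barcode, as whole numbers for 12908 called barcodes of 1 capture, per the file headers. They cover 31062 gene rows, 35 antibody tags and the hashtags in 3 libraries. Per the submitters' processing notes they were made with Cell Ranger 3.1 on build mm10, and Seurat 3.1.1 is also named. The version of the gene annotation was not given in the sources used here. The gene and tag counts of the gated cells were summed per hashtag sample and side (4860880 UMIs on the low and 4879300 on the high side). Sums were tested with edgeR 4.0.16 in R 4.3.3 (quasi-likelihood, TMM for genes, tag total for tags, filterByExpr, hashtag sample as block), with Benjamini-Hochberg adjustment at 0.05 over all genes or tags tested. CPM are counts scaled to the summed UMIs, and fold changes come from the fit. A gene was counted as higher or lower in a sample by its TMM-scaled log2 difference with a prior count of 2.

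Both sides come from the same hashtag sample, which is where the pairing comes from. Their deviations from the side means correlated at 0.0994 to 0.306 over the 7 samples. Doublets were handled by the UMI limit, the hashtag share and the marker filter among the alternatives, with no doublet caller. Each barcode was listed once. On simulated counts with the real means, the gene test recovered 89.9% of log2 changes of 1 and 32.3% of 0.5 among 5534 genes, with 0.115% of unchanged genes called.

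Named genes were, in each list, up to 4 with the largest log2 fold change among those past the threshold and moved the same way in every sample. Outside the lists they were the 10 largest rises and falls with at least 20 CPM on either side, and 12 genes were always named. Others are given as outside that rule. A few genes that the rule names are not reported here. The members, lists and rule were chosen with earlier results of these data known. Alternatives covered the tool (DESeq2 1.42.0), filters, gate, ranking and each sample left out. Promoters come from RefSeq GRCm38.p6 and were matched by symbol, Ensembl ID or synonym. Antibody tags are named as deposited, and 3 of them (CD335, CXCR4 and KLRG1) had no count in these cells.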

Additional observations from a re-analysis of the deposited data

Results flagged for a closer look

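Each named value was checked for a hashtag sample that stood apart from the others. Of 76 such groups 8 held one, and chance flags about 1 in 20 groups. The log2 difference between Cxcl10-high and Cxcl10-low cells of sample 4, which had 11 cells a side, stood apart for Ifih1 (2.45, against 1.43 to 1.59 in the others), Acsl1 (-3.33) and Cxcl9 (-4.66, against 0.43 to 2.01). In sample 6 it was the lowest for Il6 (1.07, against 1.74 to 2.00) and the highest for Tapbp (0.81, against 0.17 to 0.41). In sample 2 it was the lowest for Irf1 (0.36, against 1.32 to 1.92) and the highest for Cycs (0.96, against 0.34 to 0.60). In sample 3 it was the lowest for Eno3 (-2.32). In each case the sample kept the direction of the others except for Cxcl9 in sample 4. For the genes other than Cxcl9 the naming rule had fixed this, since it took only genes that moved the same way in every sample.

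The 9 gated cells of hashtag sample 1, which entered no comparison, held 312 Cxcl10 UMIs, so the gene was present in that sample as well.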

How the results depend on the processing

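Against 557 higher genes, 388 to 740 were higher under 11 of 12 alternatives other than leaving out single samples (4 of the 12 kept 6 samples), and 158 without cells that held UMIs of at least 2 genes of a lymphoid, carcinoma, microglia, endothelial or neutrophil list, where 2044 genes were tested. The 740 came without the filter on low counts, the fit with a smaller standard error for Ccl2 described above. Leaving out each sample in turn gave 440 to 572 higher and 71 to 186 lower genes. The lower genes moved more. Against 177, the counts were 105 without the replicate block, 83 with DESeq2, 90 when the ranking was cut at the median, 37 without cells with other markers, 80 with at least 5 gate genes and 41 without samples 7 and 8 (chosen after seeing the data). By sample left out, 112 were lower without sample 3, 5 or 7 and 71 without sample 8. The cause was not tested, though fewer genes were tested in the setting without cells with other markers and with at least 5 gate genes. Without the replicate block 434 genes were higher, and 431 of them were among the 557. Of 70 named genes past the threshold 40 kept their call under every alternative that tested them, including all 33 with a log2 change above 1. Genes named by size had been picked among those called and moved the same way in every sample, which favours keeping a call. Ly6c2 reversed to -0.0074 with at least 5 gate genes. No tag passed under any alternative, though the sign-flip test among them could not pass a single tag on its own. The differences in depth and quality did not pass either. Sample 4, with 11 cells a side, limits what single low genes can show.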
